A study of Homo sapiens with 6 samples.

Results

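The 10 genes described here encode 7 histone deacetylases (HDAC1 to HDAC7) and 3 lysine acetyltransferases (KAT2A, KAT2B and EP300), and all 10 were found by symbol among the 27381 genes of the table. They were chosen by name with earlier values of the same table known, so their levels and differences are a description. The series holds 6 RNA-Seq libraries of DU145, a human castration-resistant prostate cancer (CRPC) line. The labels give 2 libraries each to scrambled control cells (Scr), which received Cas9 with a sgRNA that has no target, to CD24 KO cells and to RCC2 KO cells, both edited with CRISPR/Cas9. The methods describe transfected cells of all 3 kinds sorted for GFP and grown as clones, and which clone each library came from is not given in the sources used here. CD24 is a small glycosylated surface and intracellular protein, and RCC2 is a chromatin- and microtubule-associated regulator of mitosis. The authors deposited 1 value per gene and condition in FPKM, a count of fragments corrected for transcript length and sequencing depth, so no SD between libraries, n or test exists for any value below. The RCC2 KO column has the same name as 1 of the RCC2 KO libraries, and may therefore hold 1 library or both.

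Histone deacetylases remove acetyl groups from lysines, which tightens the contact of histone tails with DNA and is associated with transcriptional repression. The class I enzymes HDAC1, HDAC2 and HDAC3 are nuclear and carry most of the histone deacetylase activity inside corepressor complexes. The class IIa enzymes HDAC4, HDAC5 and HDAC7 move between nucleus and cytoplasm, bind MEF2 transcription factors and have little deacetylase activity of their own, and the class IIb enzyme HDAC6 is a cytoplasmic deacetylase of tubulin. KAT2A (GCN5) and its paralog KAT2B (PCAF) are alternative catalytic subunits of the SAGA and ATAC coactivator complexes and acetylate histone H3. EP300 (p300) is a broad acetyltransferase that marks active enhancers and acts as a coactivator of many transcription factors, β-catenin among them.

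The promoters of KAT2A and KAT2B are printed because these paralogs had different orders of values and KAT2A had the largest difference of any member. Each sequence runs 5′ to 3′ on the gene's own strand, from 250 bases before to 50 bases after the gene's start, as RefSeq gives it for GRCh38.p14. The KAT2A window lies at chr17:42121318-42121617 on the minus strand and the KAT2B window at chr3:20040196-20040495 on the plus strand. Capitals mark the GC box (letters GGGCGG), the CCAAT box (letters CCAAT), the E-box (letters CACGTG), the E2F site (letters GGCGGGAA) and the TATA box (letters TATAAA) on either strand.
KAT2A: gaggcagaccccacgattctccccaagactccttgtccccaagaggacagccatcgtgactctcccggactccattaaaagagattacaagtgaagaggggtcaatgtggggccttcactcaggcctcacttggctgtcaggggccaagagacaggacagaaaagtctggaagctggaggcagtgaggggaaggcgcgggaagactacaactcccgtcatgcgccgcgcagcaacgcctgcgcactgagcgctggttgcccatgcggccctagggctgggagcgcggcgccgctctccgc
KAT2B: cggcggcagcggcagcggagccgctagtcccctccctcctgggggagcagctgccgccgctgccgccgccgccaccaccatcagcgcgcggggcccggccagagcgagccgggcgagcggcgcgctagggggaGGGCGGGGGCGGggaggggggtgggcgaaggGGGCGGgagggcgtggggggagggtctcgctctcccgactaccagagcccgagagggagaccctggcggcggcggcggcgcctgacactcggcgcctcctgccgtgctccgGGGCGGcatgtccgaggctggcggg
None of the 5 motifs was found in the KAT2A window, and the KAT2B window holds 4 GC boxes. The KAT2A window has 62.0% G and C with 18 CpG dinucleotides, and the KAT2B window 80.3% with 40, against a median of 58.7% over the 35116 promoter windows of the table. Windows were found for 9 of the 10 members, all but HDAC5. A GC box is present in windows of 5 of these 9 genes and in 44.95% of all windows, a CCAAT box in 2 and in 34.6%, an E2F site in 2 and in 3.16%, an E-box in 1 and in 7.26%, and a TATA box in 0 and in 11.5%. HDAC4 and HDAC6 have several windows each, and the letters of a GC box and an E2F site can overlap. These matches describe letters and not binding.

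The targeted genes, the cell line markers and the depth set the limits of the table. In the order Scr, CD24 KO and RCC2 KO, CD24 RNA was at 93.2, 309 and 214 FPKM, and RCC2 RNA was at 37.8, 14.2 and 41.8 FPKM. Neither RNA was thus lower than in Scr under its own label, and RCC2 RNA was lowest under the label CD24 KO, with a log2 ratio to Scr of -1.42. Every difference given below for CD24 KO is one of libraries that carry this label, and the groups are called by their labels throughout. Of the epithelial markers, EPCAM, KRT8, KRT18, KRT19 and CDH1 were all above 20 FPKM in every column. The levels of EPCAM, KRT8, KRT18 and CDH1 differed mainly in the column labelled CD24 KO. KRT19 was higher in both knockouts, at 83.5 FPKM in Scr, 112.7 in CD24 KO and 106.9 in RCC2 KO. The keratin gene KRT8 was at 336 FPKM in Scr, against 149 in CD24 KO and 348 in RCC2 KO, and its partner KRT18 at 293, 141 and 305 FPKM. CDH1, which encodes E-cadherin, was at 27.9, 52.6 and 23.7 FPKM. On the log2(FPKM + 1) scale the differences between CD24 KO and Scr were -1.17 for KRT8, -1.05 for KRT18 and 0.89 for CDH1, and their part in the members' differences was not tested. KLK3 and KLK2, kallikrein genes of the differentiated prostate, were listed at 0. Of markers of leukocytes, endothelium and fibroblasts, PTPRC and CD3E were listed at 0 and PECAM1, COL1A1 and DCN stayed below 1 FPKM. The table holds no counts, so no depth can be given for any value. In bulk RNA a smaller number of expressing cells and less RNA per cell cannot be told apart.

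All 10 members were above 2 FPKM in every column, and all 10 passed the minimum of 1 FPKM in at least 1 column that left 12822 genes for comparison. The class I enzymes had the highest levels. Neighbours in the order of levels cannot be called different, since no spread between libraries is known. HDAC1 (chr1:32757708-32799224, positions read as hg19) was at 77.2 FPKM in Scr, against 52.9 in CD24 KO and 68.9 in RCC2 KO. It was the highest of the members in every column and lay at percentile 91.7 of the compared genes in Scr. HDAC3 (chr5:141000443-141016423), the catalytic subunit of the NCoR/SMRT corepressor complexes, was at 37.5, 30.5 and 36.2 FPKM in the same order, and HDAC2 (chr6:114257320-114661893) at 33.4, 28.95 and 34.2 FPKM. For these 3 genes the libraries labelled CD24 KO had the lowest value. GENCODE names 2 processed pseudogenes of HDAC1, to which fragments could have been assigned, and the table merges HDAC2 with HDAC2-AS2 and HS3ST5, both below 1 FPKM.

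Class II enzymes were at lower levels, and their order differed between columns. HDAC7 (chr12:48166967-48213763) was at 9.14 FPKM in Scr, against 7.24 in CD24 KO and 11.4 in RCC2 KO. The table gives HDAC7 the same position as SLC48A1, a heme transporter gene at 16.0, 20.8 and 16.7 FPKM, and an error in dividing fragments between them would touch both. HDAC5 (chr17:42154121-42201014) was at 6.83, 10.3 and 3.53 FPKM and shares its position with LOC105371789, which is listed at 0 in each column. HDAC4 (chr2:239969864-240322643), at 2.88, 2.24 and 3.002 FPKM, was the lowest member in every column. HDAC6 (chrX:48659784-48683392) was at 7.92 FPKM in Scr, against 11.5 in CD24 KO and 6.68 in RCC2 KO. HDAC5 and HDAC6 were the members with their highest value in CD24 KO and their lowest in RCC2 KO.

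KAT2A and KAT2B, which can replace each other in the same complexes, followed different orders. KAT2A (chr17:40265129-40273382) was at 25.3 FPKM in Scr, against 10.03 in CD24 KO and 27.9 in RCC2 KO, and no other gene of the table overlaps its position. KAT2B (chr3:20081524-20195896) was at 4.88, 5.25 and 7.12 FPKM, with its highest value in RCC2 KO. The level of KAT2A was therefore 5.18 times that of KAT2B in Scr, 1.91 times in CD24 KO and 3.92 times in RCC2 KO. EP300 (chr22:41488614-41576081) was at 12.9, 11.5 and 13.6 FPKM. Its level was below that of KAT2A in Scr, with a ratio of 0.510, and above it in CD24 KO, with a ratio of 1.15.

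**Figure D1:**
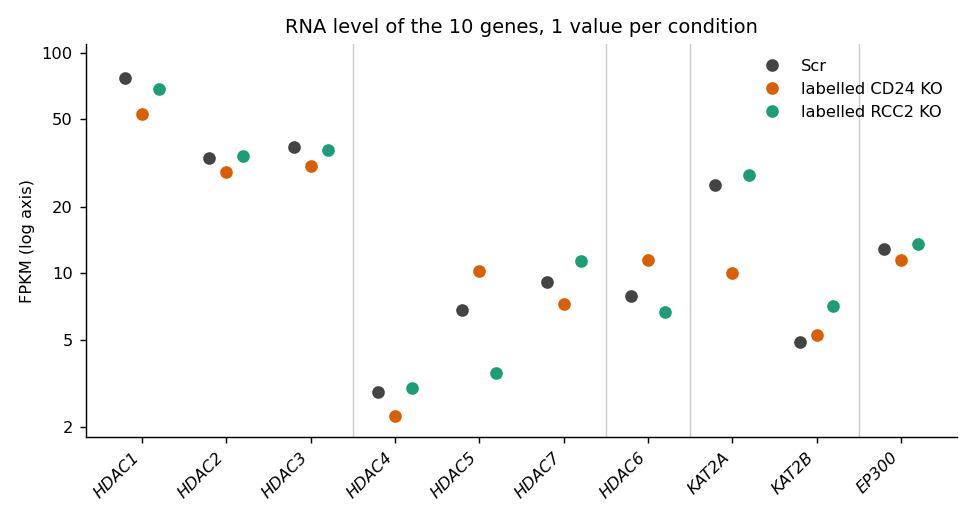
FPKM on a log axis for each of the 10 genes, with 1 point for each of the 3 deposited columns (Scr, and the libraries labelled CD24 KO and RCC2 KO). No error bar can be drawn, since the table has 1 value per condition. Vertical lines separate class I, class IIa, class IIb, the GCN5-related enzymes and EP300. HDAC1 stands highest at 52.9 to 77.2 FPKM and HDAC4 lowest at 2.24 to 3.002 FPKM, and the points of KAT2A and HDAC5 are the most spread.

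FPKM is scaled to transcript length, so the levels of the enzymes can also be added. The 7 deacetylases summed to 175 FPKM in Scr, against 144 in CD24 KO and 164 in RCC2 KO. Class I supplied 84.7% of this sum in Scr, 78.3% in CD24 KO and 85.0% in RCC2 KO, and HDAC1 alone 44.1%, 36.9% and 42.0%. The class IIa sum was 18.9, 19.8 and 17.9 FPKM, so it varied less than its members did. Within class IIa, HDAC5 made up 36.2% in Scr, 52.0% in CD24 KO and 19.7% in RCC2 KO, and HDAC7 was the higher gene in Scr and RCC2 KO. The 3 acetyltransferases summed to 43.1, 26.8 and 48.6 FPKM, and most of the span came from KAT2A. Summed over all genes, the CD24 KO column was also lower, at 388764 FPKM against 451272 FPKM in Scr and 447005 FPKM in RCC2 KO.

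The libraries labelled CD24 KO were compared with Scr to ask how the RNA of these enzymes differed under this label. KAT2A was at 0.397 times its Scr value, a difference of -1.25 in log2(FPKM + 1), the scale of all differences that follow. KAT2A was the 1 member of 10 at least 2-fold different, a minimum that 5.69% of the compared genes passed in either direction and 3.03% as lower. Its difference lay at percentile 1.32 of the differences of all compared genes. HDAC1 followed at -0.54, or 0.686 times its Scr value. HDAC7, HDAC3, HDAC4, HDAC2 and EP300 had differences of -0.30, -0.29, -0.26, -0.20 and -0.15. Higher in CD24 KO were HDAC5 by 0.52, HDAC6 by 0.48 and KAT2B by 0.09. Thus 7 of 10 members were lower and 3 higher, and their median was -0.23, beside a median of -0.03 and 52.9% lower over all compared genes. HDAC1, HDAC5 and HDAC6 lay inside the range from -0.84 to 0.78 that holds the middle of all differences, between percentiles 5 and 95. At a minimum of 1.5-fold, which 21.1% of the compared genes passed, KAT2A was still the 1 member of 10 past it on this scale. HDAC5 fell short of this minimum at 0.52, although its plain ratio of FPKM values was 1.503.

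Genes of cell division moved with KAT2A in this comparison. All 20 genes of a proliferation list, with MKI67, PLK1 and the MCM helicase subunits among them, were lower in the libraries labelled CD24 KO, with 11 at least 2-fold lower. Their summed level was 1729 FPKM in Scr, against 861 in CD24 KO and 1813 in RCC2 KO, and the individual differences ran from -1.76 to -0.42. Their part in the value of KAT2A was not tested. Among 8125 genes of at least 5 FPKM in every column, the 3 whose differences of both knockouts from Scr lay nearest to those of KAT2A were POLR2J, a subunit of RNA polymerase II, PLK1, a mitotic kinase, and PFAS, an enzyme of purine synthesis. Their distances were 0.017, 0.029 and 0.043 log2 units. PLK1 was at 79.9, 33.2 and 86.3 FPKM in Scr, CD24 KO and RCC2 KO. Likeness over 3 columns is weak evidence of any relation, since each gene has only 2 free differences.

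The libraries labelled RCC2 KO were compared with Scr in the same way. Of the 10 members, 0 were at least 2-fold different, beside 1.2% of all compared genes. At 1.5-fold, 1 of 10 members passed, beside 5.27%, and this member was HDAC5. Its difference was -0.79 or 0.517 times its Scr value, and lay at percentile 1.56 of all differences. KAT2B was higher by 0.47, or 1.46 times its Scr value, at percentile 97.3. HDAC7 was higher by 0.29 and KAT2A by 0.14, and HDAC6 and HDAC1 were at -0.22 and -0.16. HDAC2, HDAC3, HDAC4 and EP300 lay within -0.05 and 0.07. With 6 members higher and 4 lower, the median was 0.04, beside a median of -0.0036 and 50.6% lower over all compared genes. All 3 acetyltransferases had positive differences, of which KAT2B alone lay outside the range from -0.52 to 0.38 between percentiles 5 and 95 of all differences.

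**Figure D2:**
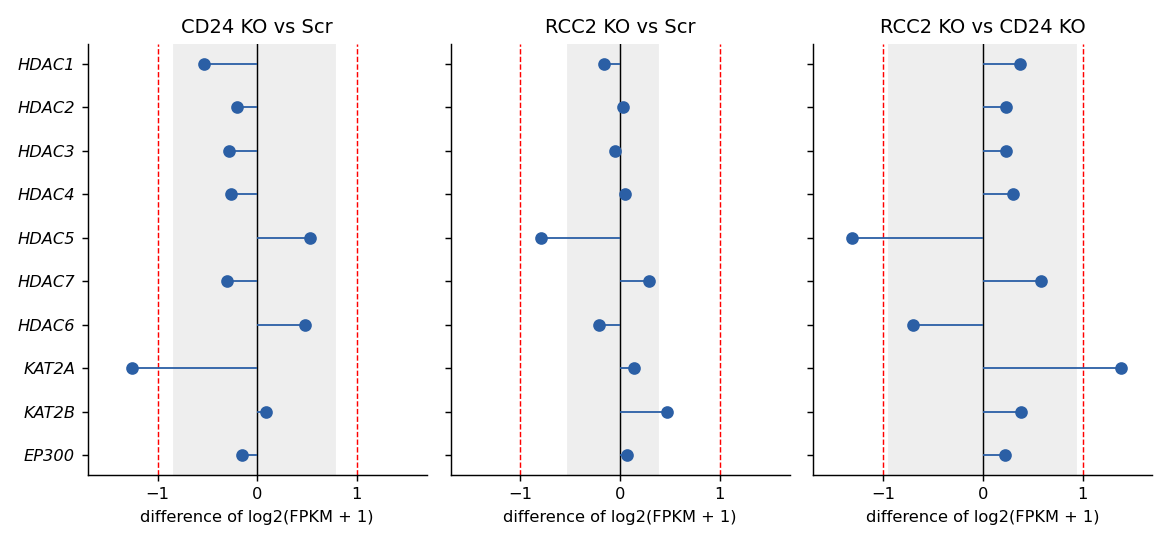
Differences of log2(FPKM + 1) for the 10 genes in the comparisons of CD24 KO with Scr, RCC2 KO with Scr and RCC2 KO with CD24 KO (first minus second), with 1 point per gene. Gray bands span percentiles 5 to 95 of 12822 compared genes, and dashed lines mark 2-fold. KAT2A lies beyond the line at -1.25 in CD24 KO against Scr, and KAT2A at 1.39 and HDAC5 at -1.32 lie beyond it between the knockouts.

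A direct comparison of RCC2 KO with CD24 KO leaves out the Scr values. KAT2A was higher in RCC2 KO by 1.39, or 2.78 times the CD24 KO value, and HDAC5 was lower by a difference of -1.32, or 0.344 times. These were 2 of 10 members at least 2-fold different, 1 in each direction, beside 8.31% of the compared genes in either direction, 4.02% as higher and 4.3% as lower. HDAC6 was also lower in RCC2 KO, at -0.70, and HDAC7 was higher, at 0.59, which made 4 of 10 members at least 1.5-fold different beside 27.9% of the compared genes. The remaining 6 members were higher by 0.22 to 0.38. In all, 8 members were higher and 2 lower, with a median of 0.27, beside a median of 0.02 and 48.3% lower over all compared genes. The ratio of HDAC5 to HDAC7 was 1.42 in CD24 KO and 0.310 in RCC2 KO, with 0.747 in Scr. For HDAC5, the nearest genes by both differences from Scr were HIST1H2AC, a histone H2A gene, MBNL2, a splicing regulator, and REEP6, at distances of 0.022, 0.056 and 0.102 log2 units. HIST1H2AC was at 47.4, 67.6 and 27.1 FPKM in Scr, CD24 KO and RCC2 KO, and its value also depends on RNA selection where histone transcripts lack a poly(A) tail.

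KAT2A and HDAC5 lie on the long arm of chromosome 17, 1881 kb apart, and the 5 nearest compared genes on each side were examined. Around KAT2A, 5 of 10 neighbours were lower and 5 higher in CD24 KO against Scr, from -0.60 for DNAJC7 to 0.44 for DHX58, and 0 were at least 2-fold different. The adjacent gene RAB5C, which starts 3.61 kb beyond KAT2A, was at 94.3, 62.5 and 87.6 FPKM, a difference of -0.59 in CD24 KO. DHX58 ends 0.378 kb from KAT2A on the other side. Around HDAC5, differences of RCC2 KO from Scr ran from -1.12 for LINC01976, a noncoding RNA, to 0.66 for LSM12, with 6 neighbours higher and 4 lower. G6PC3, which ends 0.409 kb from HDAC5, was at 47.0, 42.3 and 43.2 FPKM. UBTF, the farthest of the 5 neighbours on the other side and a factor of ribosomal RNA transcription, was at 53.3, 28.0 and 57.1 FPKM, an order like that of KAT2A. Over the 791 compared genes of chromosome 17 CD24 KO had a median of -0.04 and RCC2 KO of 0.0089.

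**Figure D3:**
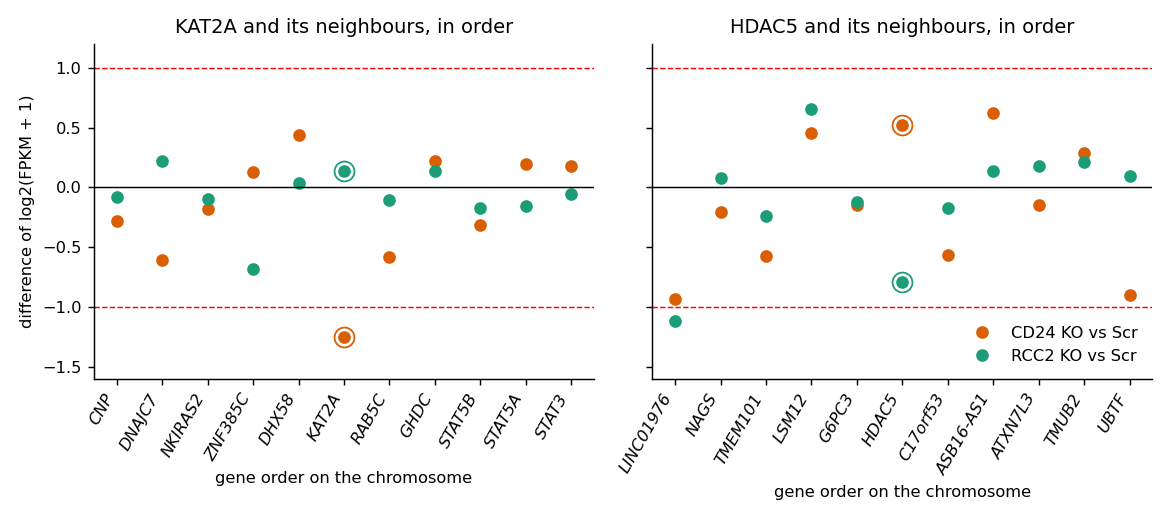
Differences of log2(FPKM + 1) from Scr for KAT2A (left) and HDAC5 (right), circled, and for the 5 nearest compared genes on each side on chromosome 17, in order of position. CNP, DNAJC7, NKIRAS2 and ZNF385C share 1 merged position, so their order among themselves is arbitrary. ATXN7L3 and TMUB2 have the same start, which does not set their order either. Each gene has 1 point for CD24 KO and 1 for RCC2 KO, and dashed lines mark 2-fold. KAT2A in CD24 KO, at -1.25, lies below all 10 of its neighbours, the lowest of which is at -0.60.

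Other genes of histone acetylation were examined through 8 lists of 88 genes, of which 87 were compared. In CD24 KO against Scr, 1 of these 87 genes was at least 2-fold lower and 0 were higher, or 1.15%, below the share of all compared genes. That gene was MBD3, a subunit of the HDAC1- and HDAC2-containing NuRD complex, at 32.7 FPKM in Scr, against 11.9 in CD24 KO and 35.7 in RCC2 KO. Its differences were -1.39 in CD24 KO and 0.12 in RCC2 KO. MBD3 was also the 1 gene of these lists at least 2-fold different between the knockouts, at 1.51, beside 8.31% of all compared genes. In RCC2 KO against Scr, 0 of the 87 genes were at least 2-fold different, beside 1.2% of all compared genes.

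Among subunits of the SIN3, NuRD and CoREST complexes, which hold HDAC1 and HDAC2, 14 of 19 were lower in CD24 KO with a median of -0.15. In RCC2 KO 10 of 19 were lower, with a median of -0.02. Of all compared genes, 52.9% were lower in CD24 KO with a median of -0.03, and 50.6% in RCC2 KO with a median of -0.0036. MTA2, a NuRD subunit chosen here after its values were seen, was at 112, 57.7 and 109 FPKM, a difference of -0.94 in CD24 KO. The NCoR/SMRT subunits, partners of HDAC3, had 2 of 5 lower in CD24 KO and 1 of 5 in RCC2 KO. GPS2, the highest of them, was at 56.9, 47.3 and 70.4 FPKM, and TBL1XR1 was next at 18.8, 23.2 and 20.9 FPKM. MEF2 factors and 14-3-3 proteins, which bind class IIa enzymes in the nucleus and cytoplasm, had a median over 10 genes of 0.02 for CD24 KO and of 0.10 for RCC2 KO. The highest of them were YWHAE, at 600.1, 460.2 and 574 FPKM, and YWHAZ, at 318, 351 and 390 FPKM, and MEF2D was the highest MEF2 gene at 27.2, 31.0 and 23.6 FPKM.

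The SAGA and ATAC subunits, partners of KAT2A and KAT2B, had 16 of 24 genes lower in CD24 KO, beside 52.9% of all compared genes. The subunits' median was -0.13, beside -0.03 over all compared genes, and the subunits' differences ran from -0.64 to 0.53, beside -1.25 for KAT2A. In RCC2 KO 7 of 24 were lower, beside 50.6% of all compared genes, with a median of 0.05. TAF9, the highest by mean, was at 106, 89.5 and 125 FPKM, and MBIP was at 76.6, 92.5 and 70.3 FPKM. Bromodomain proteins, which read acetylated lysines, had a median of -0.34 in CD24 KO and of -0.0089 in RCC2 KO over 7 genes, with BRD8 at 35.4, 27.8 and 35.2 FPKM. The 12 other acetyltransferases were split in CD24 KO, with 6 lower and 6 higher. HAT1 was at 64.8, 52.8 and 62.2 FPKM and KAT5 at 25.9, 20.2 and 25.0 FPKM, and CREBBP, the paralog of EP300, was at 11.6, 8.45 and 13.5 FPKM.

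The sirtuins, deacetylases that need NAD rather than zinc, had 5 of 7 genes higher in CD24 KO with a median of 0.22. In RCC2 KO 4 of 7 were lower, with a median of -0.19. The shares lower over all compared genes were 52.9% in CD24 KO and 50.6% in RCC2 KO. SIRT1 was at 33.3, 33.5 and 29.1 FPKM, and SIRT2 was at 9.92, 12.1 and 10.1 FPKM. Of the zinc-dependent enzymes outside the 10 members, HDAC8 was at 11.1, 9.75 and 9.13 FPKM and HDAC11 at 2.21, 3.36 and 2.00 FPKM, and HDAC9 stayed below 1 FPKM and was not compared.

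**Figure D4:**
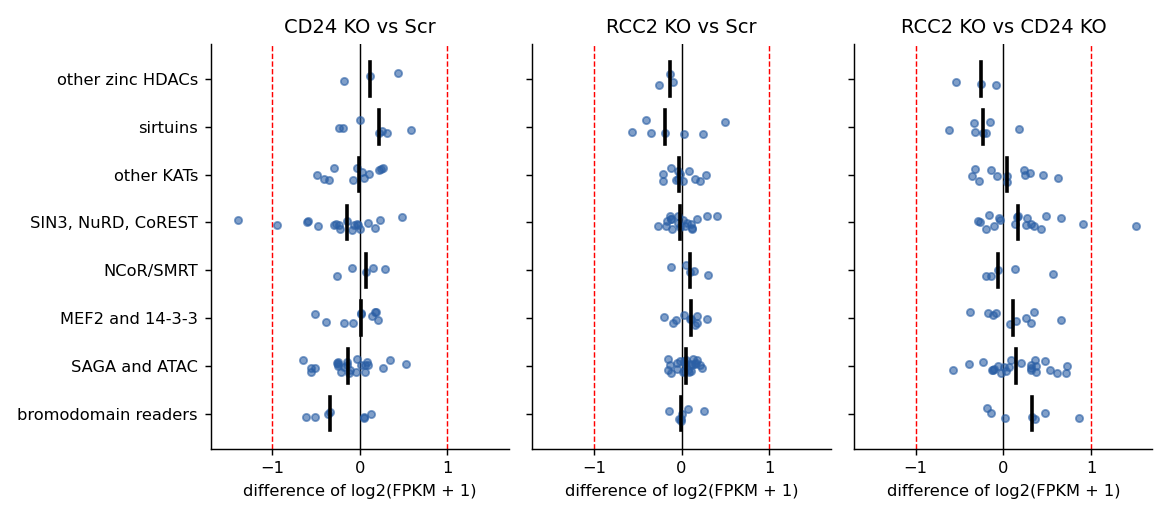
Differences of log2(FPKM + 1) for 87 related genes in 8 lists, with 1 point per gene and a black bar at the median of each list, in the comparisons of CD24 KO with Scr, RCC2 KO with Scr and RCC2 KO with CD24 KO. Dashed lines mark 2-fold, and points are spread vertically at random. MBD3 is the only point past a dashed line, at -1.39 in CD24 KO against Scr and at 1.51 between the knockouts.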

How the data were processed

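RNA of 6 DU145 libraries was measured, 2 per condition. The authors deposited FPKM values, 1 column per condition, and whether each column combines both libraries is not given in the sources used here. The submitters' processing notes name HISAT, StringTie, Cufflinks and GATK without their roles, and the build is not given in the sources used here. The labels name an RNA kit and the methods a stranded mRNA kit, and whether strand was used is not given in the sources used here. Table positions overlapped those of GENCODE 29 on GRCh38 for 15.8% of 24864 unique symbols. They were read as hg19, with starts counted from 1, but no hg19 annotation was compared. The depth is unknown.

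Genes of at least 1 FPKM in 1 column were compared as log2(FPKM + 1), with a pseudocount of 1, and at least 2-fold marked a large difference. With 1 value per condition no test, SD or p-value was possible. The members and lists were chosen with earlier results of these data known, and the lists were written from textbook knowledge. Named were all members, listed related genes at least 2-fold different, otherwise the 2 highest of a list by mean, 3 genes of like pattern and 5 neighbours per side for KAT2A and HDAC5. CREBBP, MEF2D, HDAC9 and MTA2 were named after their values were seen. Some genes under the rule are not reported here. GC content and length came from the longest GENCODE transcript, for 96.2% of compared genes. The calculation was tested on simulated data. Alternatives were other pseudocounts, filters, scalings and a 1.5-fold minimum. Python 3.11.15, NumPy 2.4.6, pandas 2.3.3 and matplotlib 3.10.9 were used.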

Additional observations from a re-analysis of the deposited data

How the results depend on the processing

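Pseudocounts of 0.1 and 5, quantile normalization, median centring, a correction for GC content and length, no filter, at least 1 FPKM in every column and a 1.5-fold minimum were tried. Of 240 member values under these 8 settings, 235 kept their direction and their side of the fold minimum. This count includes values that could not change. Every member passes either filter, so the changes of filter left the members' values as they were. The 1.5-fold minimum changed the cutoff and no value. With a pseudocount of 5, HDAC5 between the knockouts was at -0.84, which left 1 member past 2-fold there. At 1.5-fold, 1 member passed in RCC2 KO against Scr, HDAC5, and 4 passed between the knockouts, with HDAC6 and HDAC7 added. HDAC2 in RCC2 KO was at -0.0045 after the GC content and length correction. After quantile normalization the members' median was -0.12 in CD24 KO against Scr and 0.16 between the knockouts, and the cause was not tested. KAT2A in CD24 KO ran from -1.33 to -1.01. The share of compared genes past 2-fold in CD24 KO, RCC2 KO and between the knockouts was 9.84%, 3.46% and 14.4% with a pseudocount of 0.1, 2.17%, 0.421% and 2.96% with a pseudocount of 5, and 2.67%, 0.562% and 3.89% with no filter, where more genes are counted. In RCC2 KO it was 0.578% with at least 1 FPKM in every column. At 1.5-fold the shares were 21.1%, 5.27% and 27.9%. No paired analysis was possible because the columns carry no replicate numbers, and leaving out a replicate was not run for the same reason.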
